A study of Mus musculus with 10 samples.

Results

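Aldehyde dehydrogenases are the enzymes described here, by the RNA of 10 of their genes in mouse colon organoids: Aldh1a1, Aldh1a2 and Aldh1a3, which oxidise retinal, Aldh3a1, Aldh3a2 and Aldh3b1, which oxidise medium- and long-chain or aromatic aldehydes, and Aldh1b1, Aldh2, Aldh4a1 and Aldh7a1, which act in mitochondria or in amino acid breakdown. The genes were taken by name as a family, with earlier results of these data known. All 10 were found among the 56748 genes of the table. Mouse colon organoids, which are cultures of gut epithelium grown as small hollow tissues, were given WY-14643, a synthetic agonist of the fatty acid receptor PPARα, at 100 µM, or its vehicle. Treatment began 3 days after passaging and lasted 2 days, and RNA was sequenced from 5 WY-14643 libraries (replicates 6 to 10) and 5 vehicle libraries (replicates 1 to 5). The labels give no genotype, strain, age or animal of origin, and nothing says whether the 5 libraries of a group are separate cultures, so p-values measure only the spread between these libraries. The labels name no group in which PPARα was removed or blocked, so all libraries share that state.

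Aldehyde dehydrogenases pass electrons from an aldehyde to NAD or NADP and so turn reactive aldehydes into carboxylic acids. The retinal forms make retinoic acid, the ligand of the retinoic acid receptors, and in the gut retinoic acid shapes epithelial differentiation and mucosal immunity. The fatty aldehyde forms clear aldehydes left by lipid peroxidation and by the breakdown of sphingolipids, ether lipids and fatty alcohols, and Aldh3a2 is a known target of PPARα in rodent liver.

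Between 16136440 and 22209003 gene-assigned reads stood behind the WY-14643 libraries and between 15618244 and 29271304 behind the vehicle libraries. Levels are given as FPKM, which scales the fragments of a gene by its length and by a measure of library size. Over genes detected in all 10 libraries, the median ratio of a library to the average was 1.009 in each library. The deposited values had therefore already been brought to a common median ratio between libraries. Differences are of log2(FPKM + 1), a scale on which low genes appear to differ less than they do. Epithelial markers were abundant as a sum: the 13 markers summed to 2499 to 5639 FPKM in WY-14643 and 2563 to 4586 FPKM in vehicle libraries. Krt8 alone averaged 1735 FPKM in WY-14643 and 1713 FPKM in vehicle libraries. The lowest marker, Slc26a3, averaged 2.23 FPKM in WY-14643 and 1.55 FPKM in vehicle libraries. Car1 varied widely, from 43.1 to 1626 FPKM in WY-14643 and from 21.0 to 886.8 FPKM in vehicle libraries. The 8 fibroblast and smooth muscle markers summed to 0.0608 to 0.313 FPKM in WY-14643 and 0.0966 to 0.215 FPKM in vehicle libraries, and Dcn was at 0 throughout. Endothelial markers (3 genes) reached at most 0.0237 FPKM in WY-14643 and 0.0409 FPKM in vehicle libraries. Of 5 immune markers Cd3e and Adgre1 were at 0, and only Cd68, a lysosomal protein, had a mean above 1 FPKM, 3.56 ± 1.66 in WY-14643 and 3.93 ± 1.25 in vehicle libraries (SD, n = 5 each). Neuronal and glial markers (4 genes) summed to 0.246 to 1.504 FPKM in WY-14643 and 0.298 to 0.852 FPKM in vehicle libraries, with Elavl4 and Sox10 at 0. Hepatocyte markers (3 genes) summed to at most 0.474 FPKM in WY-14643 and 0.374 FPKM in vehicle libraries, with Alb at 0 in every library. Libraries matched in numerical order (WY-14643 replicate 6 with vehicle replicate 1, and so on) deviated together from their group means, so values are also given within these 5 pairs, although no label states them.

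No aldehyde dehydrogenase among the 10 passed the test. Aldh3a1, Aldh1a1 and Aldh3a2 had higher means after WY-14643, at 2.996, 2.05 and 1.31 times the vehicle mean, and were higher in 5 of 5 pairs. The other tested members, from abundant Aldh2 to low Aldh4a1, had WY-14643 means at 0.955 to 1.09 times the vehicle mean. In 9 members the mean over all 10 libraries reached the filter of 0.5 FPKM, and each of the 9 had a mean above it in both groups. Aldh1a2 did not reach it. With limma on all 10 libraries, 0 of 9 tested members passed after Benjamini-Hochberg adjustment over 13607 genes (threshold 0.05), where 0% of all genes were called higher and 0% lower. At an unadjusted p under 0.05 there were 3 of the 9 members, against 1.51% of all genes (205), and voom on recovered reads also called 0 genes with 171 at an unadjusted p under 0.05. With the 5 pairs as a block 0 of the 9 passed as well, where 0.287% of all genes were called higher and 0.0294% lower (0.316% in either direction). At an unadjusted p under 0.05 there were then 4 of the 9, against 10.6% of all genes. The groups did not overlap in 1 of the 9, Aldh3a1, against 0.353% of all genes, of which 0.243% had all WY-14643 libraries higher and 0.11% all lower. Of the 9 tested members 3 were higher in 5 of 5 pairs, against 5.63% of all genes, and 0 were lower in 5 of 5, against 6.09%.

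**Figure D1:**
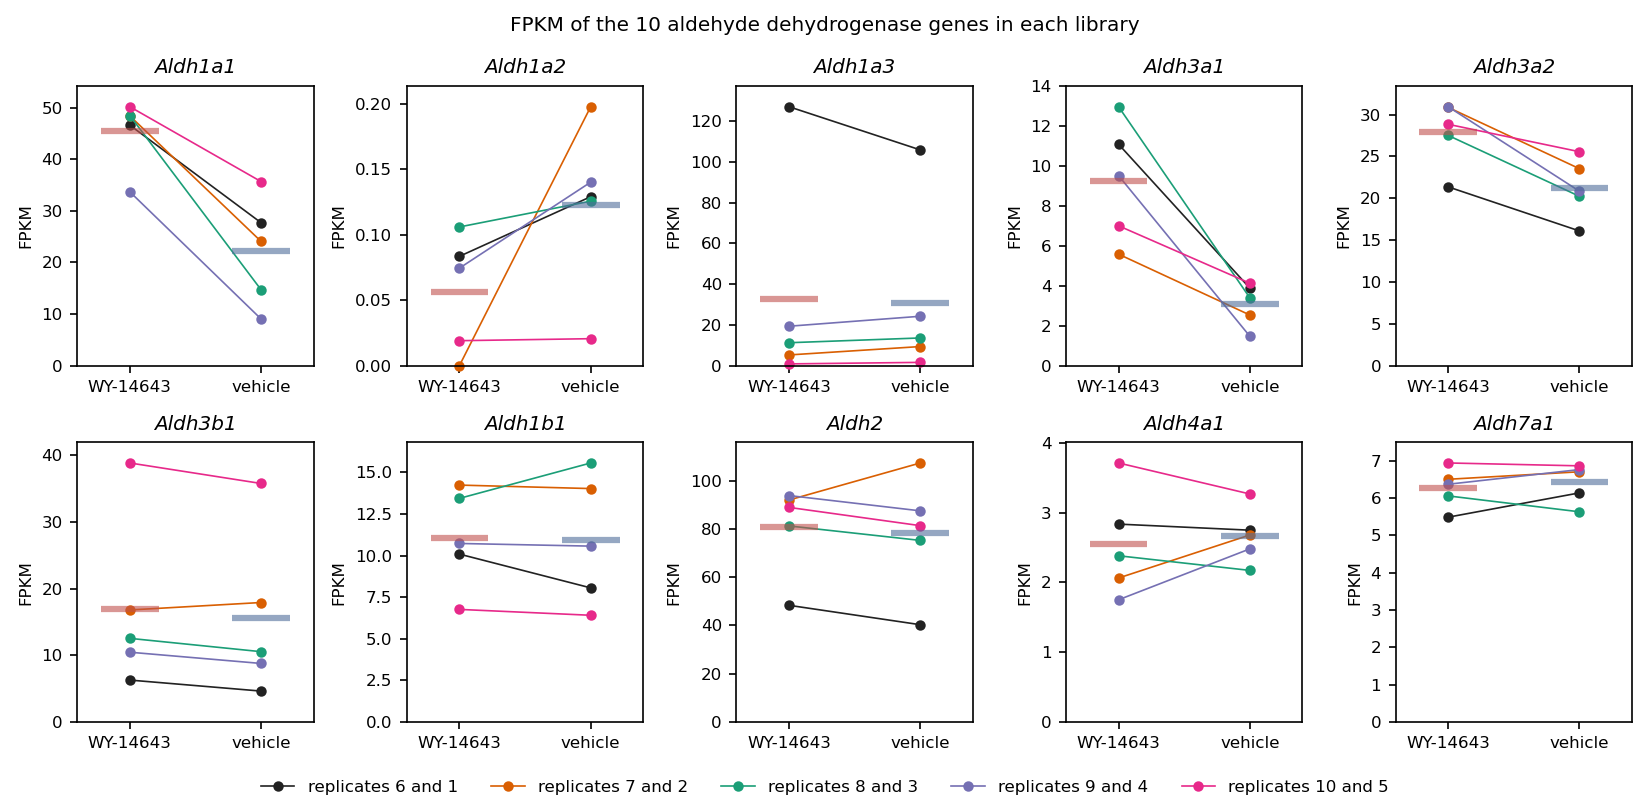
FPKM of each of the 10 genes (y axis, linear, own scale per panel) in the 5 WY-14643 libraries (left) and the 5 vehicle libraries (right). Lines join libraries matched in numerical order, coloured bars are group means, and only the Aldh3a1 panel shows groups that do not overlap (5.58 to 13.0 against 1.47 to 4.13 FPKM).

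Among the retinal forms Aldh1a1, a cytosolic enzyme that makes retinoic acid from retinal and is used as a marker of stem and progenitor cells in many tissues, was the most evenly present. Aldh1a1 was at 46.6, 48.4, 48.5, 33.7 and 50.2 FPKM in WY-14643 replicates 6 to 10, against 27.7, 24.1, 14.7, 9.03 and 35.6 FPKM in vehicle replicates 1 to 5. The groups overlapped in a single library each, WY-14643 replicate 9 lying below vehicle replicate 5, and 4 of the WY-14643 libraries lay close together while the vehicle libraries spread widely. The means were 45.5 ± 6.70 FPKM in WY-14643 and 22.2 ± 10.5 FPKM in vehicle (SD, n = 5 each), a log2 fold change of 1.13 ± 0.31 (SE). It did not pass (limma, adjusted p = 1, unadjusted p = 0.00414; exact two-sided permutation test, unadjusted p = 0.0159). Within pairs the log2 difference ran from 0.48 for replicates 10 and 5 to 1.79 for replicates 9 and 4, and it was larger where the vehicle library, which enters the difference, was lower. In bulk RNA, more cells that express the gene and more RNA per cell cannot be told apart.

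Aldh1a1 lies on chromosome 19 from 20470079 to 20620829 on the plus strand (ENSMUSG00000053279, mm39, as the gene table gives it). Its neighbour Aldh1a7, a rodent copy of Aldh1a1 on the same chromosome, is similar enough that the 2 were read together. Their coding sequences, in GENCODE M21, are 91.6% identical over 1506 aligned bases, and the longest run they share is 100 bases, coding positions 757 to 856 in both. It is shown because a read from within it cannot be assigned to either gene by its sequence:
Aldh1a1 and Aldh1a7 shared coding run: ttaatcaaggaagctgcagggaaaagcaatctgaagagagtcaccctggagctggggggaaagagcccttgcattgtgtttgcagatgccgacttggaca
Of all distinct 50-base stretches of Aldh1a1 transcripts 6.06% also occurred in Aldh1a7, so reads from those stretches could have been counted for either gene. The read length, and how the authors treated such reads, is not given in the sources used here. The 300-base promoter windows of the 2 genes (RefSeq, GRCm38.p6, 250 bases before to 50 after the start) also share a run, of 65 bases from 94 to 30 bases before the start, shown in capitals. For Aldh1a1, which has 2 annotated starts in RefSeq, the window is chr19:20601718-20602017 on the plus strand, and for Aldh1a7 it is chr19:20727507-20727806 on the minus strand:
Aldh1a1: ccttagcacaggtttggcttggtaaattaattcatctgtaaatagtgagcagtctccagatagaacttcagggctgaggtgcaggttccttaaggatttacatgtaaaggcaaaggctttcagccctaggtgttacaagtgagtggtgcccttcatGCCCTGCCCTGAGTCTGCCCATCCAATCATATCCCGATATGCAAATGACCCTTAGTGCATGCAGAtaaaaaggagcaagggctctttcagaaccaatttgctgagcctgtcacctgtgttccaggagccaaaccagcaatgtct
Aldh1a7: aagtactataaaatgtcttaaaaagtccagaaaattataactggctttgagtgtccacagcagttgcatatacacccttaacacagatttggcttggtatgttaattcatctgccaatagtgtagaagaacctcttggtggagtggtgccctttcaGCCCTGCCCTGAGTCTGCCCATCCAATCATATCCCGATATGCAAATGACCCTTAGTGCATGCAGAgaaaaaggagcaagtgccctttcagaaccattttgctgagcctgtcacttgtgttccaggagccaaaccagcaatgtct
Aldh1a7 was at 4.54, 12.5, 10.3, 11.1 and 2.89 FPKM in WY-14643 replicates 6 to 10, against 1.98, 5.80, 2.34, 2.18 and 1.92 FPKM in vehicle replicates 1 to 5. It was higher in 5 of 5 pairs with overlapping groups, and its log2 fold change of 1.20 ± 0.37 (SE) did not pass (limma, adjusted p = 1, unadjusted p = 0.00883). Across the 5 pairs its differences had the same order as those of Aldh1a1, smallest in replicates 10 and 5 and largest in replicates 9 and 4. Their levels differed in order, since WY-14643 replicate 10 had the highest Aldh1a1 of all libraries and the lowest Aldh1a7 of its group.

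Aldh1a3, the retinal form with a high affinity for all-trans retinal, varied far more between pairs than between treatments. It was at 127.1, 5.27, 11.3, 19.4 and 0.870 FPKM in WY-14643 replicates 6 to 10, against 105.9, 9.38, 13.6, 24.2 and 1.62 FPKM in vehicle replicates 1 to 5. The pair of replicates 6 and 1 stood far above all others and the pair of replicates 10 and 5 at the bottom, and the groups overlapped throughout. Outside replicates 6 and 1 the WY-14643 library was the lower of each pair. The log2 fold change of -0.30 ± 1.16 (SE) did not pass (limma, adjusted p = 1), and its sign turned when vehicle replicate 1 (0.38) or WY-14643 replicate 10 (0.40) was left out; it was -1.13 with WY-14643 replicate 6 left out and -0.96 with vehicle replicate 5 left out. Without pairs the SE was larger than the difference itself. With the pairs as a block the SE was 0.13, and the difference did not pass there either (limma, adjusted p = 0.493, unadjusted p = 0.0585). The gene lies on chromosome 7 from 66040638 to 66077265 on the minus strand (ENSMUSG00000015134, mm39).

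Aldh1a2, the main retinal dehydrogenase of the embryo and of mesenchymal cells, was close to absent. It had between 0 and 13 reads per library, with means of 0.0566 ± 0.0450 FPKM in WY-14643 and 0.123 ± 0.0640 FPKM in vehicle libraries (SD, n = 5 each), below the filter and therefore not tested. It was the lower one in WY-14643 in 5 of 5 pairs, in the last of them by 0.0191 against 0.0206 FPKM, 1 read in each library (exact two-sided permutation test without pairs, unadjusted p = 0.103; exact sign-flip test over pairs, unadjusted p = 0.0625, the smallest that 5 pairs allow). Over the 2 tested retinal forms the median log2 fold change was 0.41, beside -0.01 over all 13607 genes tested. With the untested Aldh1a2 it was -0.09, the value of Aldh1a2 itself, and its sign turned when WY-14643 replicate 10 (0.40) or vehicle replicate 1 (0.38) was left out.

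Summed over the retinal forms, the level was 173.8, 53.7, 59.8, 53.1 and 51.0 FPKM in WY-14643 replicates 6 to 10, against 133.7, 33.6, 28.4, 33.4 and 37.3 FPKM in vehicle replicates 1 to 5. The sum was the higher one of the pair in every WY-14643 library, while replicates 6 and 1 stood apart from the rest in both groups. Aldh1a1 made up 26.8%, 90.2%, 81.0%, 63.4% and 98.3% of that sum in WY-14643 replicates 6 to 10, against 20.7%, 71.5%, 51.7%, 27.0% and 95.6% in vehicle replicates 1 to 5. Its share was larger in WY-14643 in each pair, and in replicates 6 and 1 Aldh1a3 was the main form in both groups.

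The fatty aldehyde forms held both the largest fold among the tested members, in Aldh3a1, and a small difference with little spread, in Aldh3a2. Aldh3a1, which oxidises aromatic and medium-chain aldehydes, is a crystallin of the mouse cornea and is a classic target of the aryl hydrocarbon receptor, was at 11.1, 5.58, 13.0, 9.52 and 7.005 FPKM in WY-14643 replicates 6 to 10, against 3.88, 2.54, 3.39, 1.47 and 4.13 FPKM in vehicle replicates 1 to 5. The lowest WY-14643 library was above the highest vehicle library. The means were 9.23 ± 2.99 FPKM in WY-14643 and 3.08 ± 1.09 FPKM in vehicle (SD, n = 5 each), a log2 fold change of 1.32 ± 0.25 (SE), and 45 to 420 reads stood behind each value. It ranked 15th of 13607 by p but did not pass (limma, adjusted p = 0.253, unadjusted p = 2.78e-04; exact two-sided permutation test, unadjusted p = 0.00794, the smallest that 5 against 5 libraries allow). With library quality weights, where 0.154% of all genes were called, Aldh3a1 was the only member to pass (limma, adjusted p = 0.0343); over all 23 alternatives its adjusted p lay between 0.0343 and 0.749. Vehicle replicate 3 and WY-14643 replicate 8 carried weights of 4.35 and 3.90 there, and all others at most 1.03. Within pairs the log2 difference was 0.64 for replicates 10 and 5 at the least and 2.09 for replicates 9 and 4 at the most, the same pairs as for Aldh1a1. The gene lies on chromosome 11 from 61098363 to 61109247 on the plus strand (ENSMUSG00000019102, mm39).

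Aldh3a2, the fatty aldehyde dehydrogenase of the endoplasmic reticulum and peroxisome, whose loss in humans causes the skin and nerve disorder Sjögren-Larsson syndrome, differed less but with little spread. Aldh3a2 was at 21.4, 30.9, 27.5, 30.9 and 28.9 FPKM in WY-14643 replicates 6 to 10, against 16.1, 23.5, 20.2, 20.8 and 25.6 FPKM in vehicle replicates 1 to 5. Only WY-14643 replicate 6 reached into the vehicle range, and its partner was the lowest vehicle library. The means were 27.9 ± 3.93 FPKM in WY-14643 and 21.3 ± 3.59 FPKM in vehicle (SD, n = 5 each), a log2 fold change of 0.38 ± 0.14 (SE), which did not pass (limma, adjusted p = 1, unadjusted p = 0.0193; exact two-sided permutation test, unadjusted p = 0.0317). The differences within pairs lay between 0.17 and 0.55 on the log2 scale. Aldh3a2 lies beside Aldh3a1 on chromosome 11, from 61114243 to 61158290 on the minus strand (ENSMUSG00000010025, mm39), and the 2 genes share no 50-base stretch of transcript sequence.

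The promoter windows of the members were searched on both strands for the peroxisome proliferator response element (direct repeat of AGGTCA with 1 base between), bound by PPAR and RXR, for its half-site AGGTCA, for the antioxidant response core TGACNNNGC and for the xenobiotic response core GCGTG; the half-site is part of the direct repeat. RefSeq windows were matched for 6 of the 10 members, 7 windows in all because Aldh1a1 has 2. Aldh1a3, Aldh3a1, Aldh2 and Aldh7a1 had no window and were not searched. The direct repeat was in 0 of the 7, as in 0.0396% of 32851 windows of all genes. The half-site was in 1 of the 7 (Aldh3b1), against 16.3% of all windows, the antioxidant core in 1 (Aldh1a2), against 12.4%, and the xenobiotic core in 3 (Aldh1a2, Aldh3a2 and Aldh4a1), against 32.4%. The window of Aldh3a2, chr11:61267137-61267436 on the minus strand (GRCm38.p6), is shown because Aldh3a2 is the member known as a PPARα target, with its single match, GCGTG, in capitals:
Aldh3a2: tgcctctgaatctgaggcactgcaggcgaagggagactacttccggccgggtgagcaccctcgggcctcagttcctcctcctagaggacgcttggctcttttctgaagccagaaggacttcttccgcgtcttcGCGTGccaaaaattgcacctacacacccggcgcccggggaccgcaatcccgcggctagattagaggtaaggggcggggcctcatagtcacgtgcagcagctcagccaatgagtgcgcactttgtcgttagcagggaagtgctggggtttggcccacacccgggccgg
A match is only a match of letters, and its absence holds for this window alone.

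Aldh3b1, which is anchored to membranes and oxidises lipid-derived aldehydes, followed the pair of libraries. It was at 6.28, 16.8, 12.5, 10.5 and 38.9 FPKM in WY-14643 replicates 6 to 10, against 4.63, 17.9, 10.5, 8.77 and 35.8 FPKM in vehicle replicates 1 to 5. Replicates 10 and 5 were highest and replicates 6 and 1 lowest, the reverse of Aldh1a3, and the groups overlapped. The log2 fold change was 0.17 ± 0.54 (SE) and did not pass (limma, adjusted p = 1); 4 of 5 pairs were higher in WY-14643, by at most 0.37. Of its 50-base stretches 9.55% occur in other genes, most of them in Aldh3b3, which was at 0 in all libraries. Over the 3 fatty aldehyde forms the median log2 fold change was 0.38, beside -0.01 over all genes tested. All 3 had a higher mean in WY-14643, and 0 passed.

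**Figure D2:**
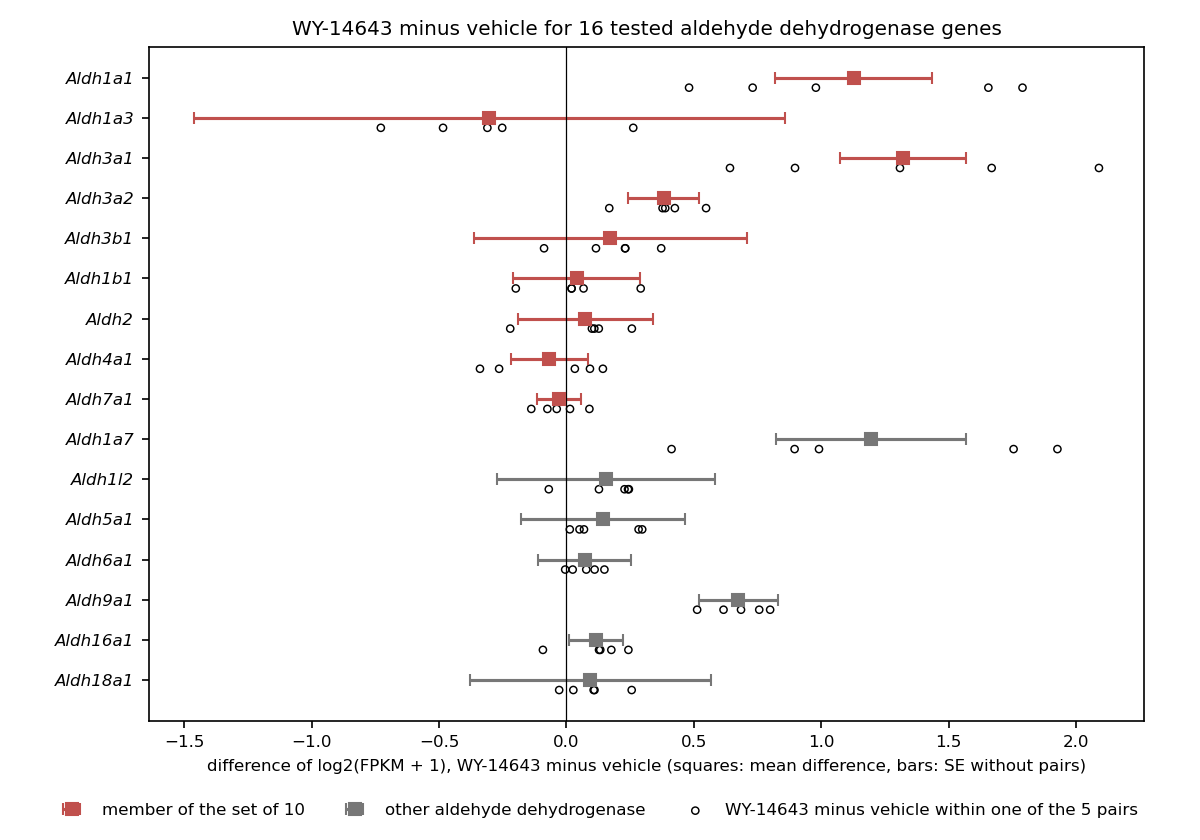
Difference of log2(FPKM + 1), WY-14643 minus vehicle (x axis), for the 9 tested members (red) and 7 other tested aldehyde dehydrogenase genes (grey). Squares are mean differences with the SE of the fit without pairs and open circles the 5 differences within pairs; the circles of Aldh1a1, Aldh3a1, Aldh3a2, Aldh1a7 and Aldh9a1 lie to the right of 0 in all pairs, as do those of Aldh5a1.

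Together the fatty aldehyde forms summed to 38.7, 53.3, 53.0, 50.9 and 74.7 FPKM in WY-14643 replicates 6 to 10, against 24.6, 44.0, 34.2, 31.1 and 65.5 FPKM in vehicle replicates 1 to 5. Aldh3a2 was the main form in 4 of the 5 pairs and Aldh3b1 in replicates 10 and 5. Aldh3a1 took 18.3% ± 8.45 of the sum in WY-14643 and 8.50% ± 4.51 in vehicle libraries (SD, n = 5 each). The ratio of Aldh3a2 to Aldh3a1 was 1.93 to 5.53 in WY-14643 and 4.15 to 14.2 in vehicle libraries, and it was lower in WY-14643 in each pair.

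The mitochondrial and amino acid forms had means that differed by less than the spread between libraries. Aldh2, the mitochondrial enzyme that clears acetaldehyde and the lipid peroxidation product 4-hydroxynonenal, was the most abundant member in 8 of 10 libraries. Aldh2 was at 48.3, 91.9, 81.2, 93.8 and 88.9 FPKM in WY-14643 replicates 6 to 10, against 40.3, 107.3, 75.2, 87.5 and 81.3 FPKM in vehicle replicates 1 to 5. It was low in replicates 6 and 1, where Aldh1a3 was high, and the log2 fold change of 0.07 ± 0.26 (SE) did not pass (limma, adjusted p = 1). Aldh1b1, a mitochondrial relative of Aldh2 found in intestinal stem cells, averaged 11.1 ± 2.97 FPKM in WY-14643 and 10.9 ± 3.87 FPKM in vehicle libraries, and its highest library was vehicle replicate 3 at 15.6 FPKM. Aldh4a1, which makes glutamate from the proline breakdown product pyrroline-5-carboxylate, averaged 2.55 ± 0.765 FPKM in WY-14643 and 2.67 ± 0.402 FPKM in vehicle libraries. Aldh7a1, an enzyme of lysine breakdown, averaged 6.27 ± 0.541 FPKM in WY-14643 and 6.42 ± 0.523 FPKM in vehicle libraries (SD, n = 5 each for all 3 genes). Aldh7a1 was the most constant member, from 5.48 to 6.93 FPKM in WY-14643 and from 5.63 to 6.86 FPKM in vehicle libraries. Their log2 fold changes were 0.04 ± 0.25 for Aldh1b1, -0.07 ± 0.15 for Aldh4a1 and -0.03 ± 0.09 for Aldh7a1 (SE), none of which passed (limma, adjusted p = 1 for each). Phax, a gene on the opposite strand, at 20.5 FPKM in WY-14643 and 20.4 FPKM in vehicle libraries, overlaps Aldh7a1, and since the labels leave the strandedness of the libraries undecided, reads in the overlap cannot be told apart. Of the 50-base stretches of Aldh4a1 45% also belong to Gm21969, which overlaps it on the same strand. Gm21969 was at 0.00271 FPKM in WY-14643 and 0.00949 FPKM in vehicle libraries. How reads from the shared stretches were counted is not given, so the level of Aldh4a1 may be understated.

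By mean over all 10 libraries the order was Aldh2 (79.6 FPKM), Aldh1a1 (33.8), Aldh1a3 (31.9), Aldh3a2 (24.6), Aldh3b1 (16.3), Aldh1b1 (10.99), Aldh7a1 (6.34), Aldh3a1 (6.16), Aldh4a1 (2.61) and Aldh1a2 (0.0896). Each gene in this order overlapped its neighbour in range over the 10 libraries, except Aldh4a1 and Aldh1a2. The order differed between the groups: Aldh1a1 averaged more than Aldh1a3 in WY-14643 (45.5 and 32.8 FPKM) and less in vehicle libraries (22.2 and 30.9 FPKM), and Aldh3a1 averaged more than Aldh7a1 in WY-14643 (9.23 and 6.27 FPKM) and less in vehicle libraries (3.08 and 6.42 FPKM). Summed over the 10 genes, the level was 215.9 to 279.3 FPKM in WY-14643 and 161.2 to 215.5 FPKM in vehicle libraries. Retinal forms took 32.1% ± 17.0 of that sum in WY-14643 and 26.8% ± 19.8 in vehicle libraries, and fatty aldehyde forms took 23.6% ± 6.51 in WY-14643 and 20.9% ± 7.68 in vehicle libraries (SD, n = 5 each). Both differences between the group means were smaller than the SD within a group. Within pairs the retinal share was higher in WY-14643 in 5 of 5, by the least in replicates 6 and 1 (62.2% in WY-14643 and 62.0% in vehicle), and the fatty aldehyde share was higher in 4 of 5.

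**Figure D3:**
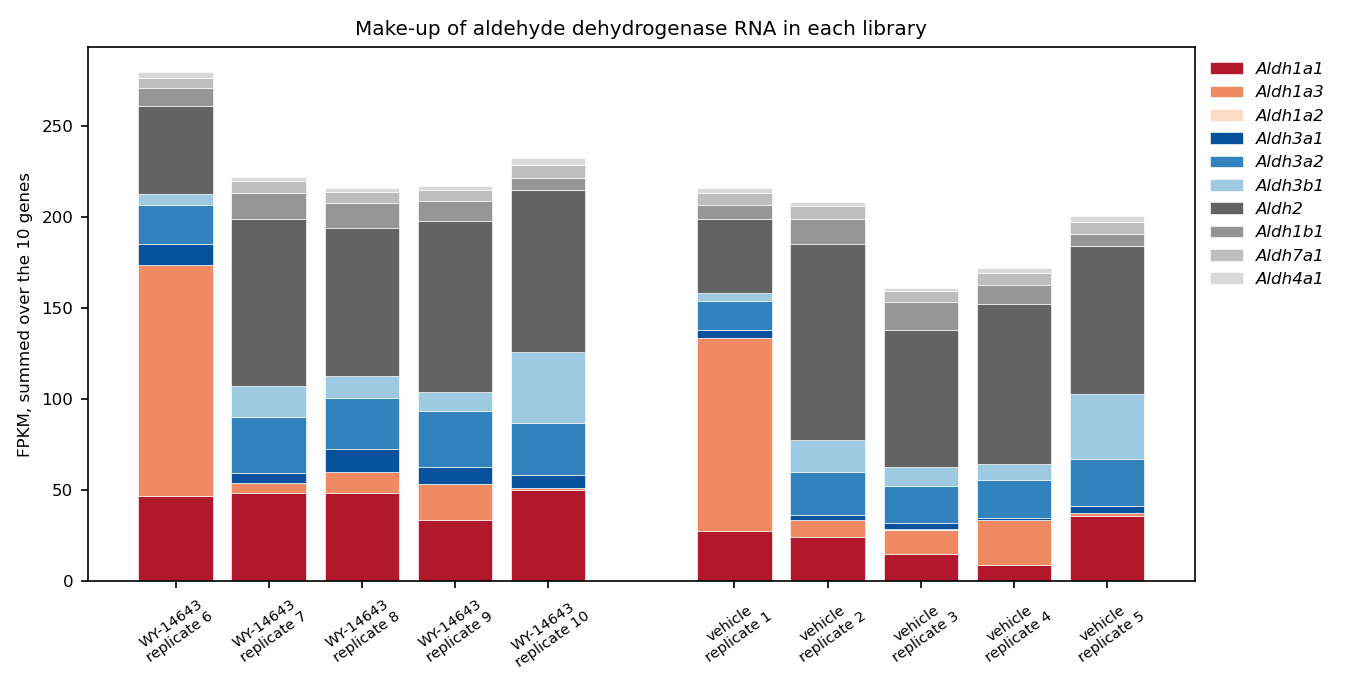
FPKM of the 10 genes stacked for each library (y axis, linear), WY-14643 replicates 6 to 10 on the left and vehicle replicates 1 to 5 on the right. Retinal forms are in reds, fatty aldehyde forms in blues and the others in greys; WY-14643 replicate 6 and vehicle replicate 1 hold more Aldh1a3 than any other member, and the other 8 libraries more Aldh2.

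Of 11 other aldehyde dehydrogenase genes in the table, 7 reached the filter, and all 7 had a higher mean in WY-14643 (median log2 fold change 0.14). None passed without pairs, where 0% of all genes did. With pairs as a block 1 of the 7 was called higher, against 0.287% of all genes. Aldh9a1, which oxidises the aldehyde intermediate of carnitine synthesis, was at 34.0, 40.7, 39.2, 31.0 and 25.3 FPKM in WY-14643 replicates 6 to 10, against 19.7, 24.9, 25.2, 17.4 and 17.4 FPKM in vehicle replicates 1 to 5, with no overlap between groups. Groups without overlap were found in 0.353% of all genes. For Aldh9a1 the lowest WY-14643 library (25.29 FPKM) lay just above the highest vehicle library (25.19 FPKM). Its log2 fold change of 0.67 did not pass without pairs (limma, adjusted p = 0.575) and passed with them (limma, adjusted p = 0.0103). Leaving out a pair gave adjusted p-values of 0.0150 to 0.0905 (limma). The mitochondrial succinate semialdehyde dehydrogenase Aldh5a1 averaged 6.61 ± 2.83 FPKM in WY-14643 and 5.96 ± 2.75 FPKM in vehicle, and Aldh6a1, of valine breakdown, 5.30 ± 1.27 FPKM in WY-14643 and 4.98 ± 1.14 FPKM in vehicle. Aldh18a1, which starts proline synthesis, averaged 38.4 ± 23.4 FPKM in WY-14643 and 37.0 ± 25.1 FPKM in vehicle. Aldh16a1 averaged 8.49 ± 0.770 FPKM in WY-14643 and 7.79 ± 1.15 FPKM in vehicle, and Aldh1l2, a mitochondrial folate enzyme, 1.42 ± 1.30 FPKM in WY-14643 and 1.26 ± 1.49 FPKM in vehicle (SD, n = 5 each). Aldh3b2 (0.379 FPKM in WY-14643 and 0.198 FPKM in vehicle), Aldh1l1, Aldh8a1 and Aldh3b3 were below the filter.

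Of 32 genes of the retinoid steps around retinal, 13 reached the filter, and their median log2 fold change was 0.10. The log2 fold change was above 0 in 9 of the 13 and below 0 in 4. In the fit without pairs or with them 0 passed. Rdh10, the retinol dehydrogenase that supplies retinal to the members, was at 122.4, 36.9, 64.3, 77.8 and 38.2 FPKM in WY-14643 replicates 6 to 10, against 114.2, 45.1, 62.6, 78.8 and 51.0 FPKM in vehicle replicates 1 to 5. Stra6, a cell-surface receptor that takes up retinol, was at 21.0, 2.67, 9.01, 5.39 and 1.77 FPKM in WY-14643 replicates 6 to 10, against 26.2, 5.52, 13.4, 7.89 and 2.41 FPKM in vehicle replicates 1 to 5. Like Aldh1a3, both were highest in replicates 6 and 1. Stra6 was the lower one in WY-14643 in all 5 pairs, with a log2 fold change of -0.49 (limma, adjusted p = 1 without pairs and 0.0840 with them); Rdh10 and Stra6 were chosen after their values were seen. Rdh13 averaged 4.12 ± 0.254 FPKM in WY-14643 and 3.67 ± 0.223 FPKM in vehicle, and Rarg, a retinoic acid receptor, 10.9 ± 0.970 FPKM in WY-14643 and 11.7 ± 1.15 FPKM in vehicle (SD, n = 5 each).

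**Figure D4:**
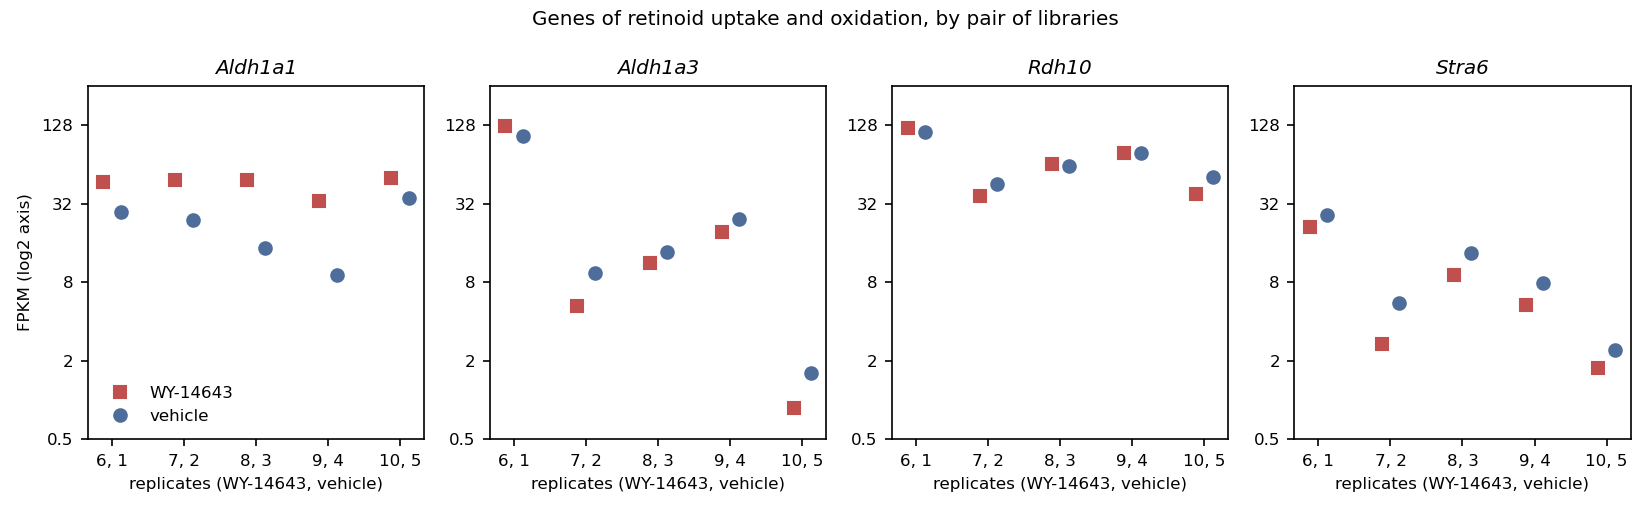
FPKM (y axis, log2) of Aldh1a1, Aldh1a3, Rdh10 and Stra6 in WY-14643 (squares) and vehicle (circles) libraries, by pair of replicates in numerical order (x axis). Aldh1a1 is higher in WY-14643 in each pair and Stra6 is lower in each pair. Aldh1a3 spans 0.870 to 127.1 FPKM across pairs, and its gaps within pairs are small only beside that span.

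Among 15 genes listed as alcohol dehydrogenases and aldehyde reductases, 12 were tested (median log2 fold change 0.09). Without pairs 0 of the 12 passed, where 0% of all genes did. With pairs 2 were called higher, against 0.287% of all genes. Akr1b8, an aldo-keto reductase of the gut, was at 151.9 to 211.8 FPKM in WY-14643 and 63.2 to 109.4 FPKM in vehicle libraries (limma, adjusted p = 0.112 without pairs and 0.00241 with them). Cbr3, a carbonyl reductase, averaged 11.6 ± 7.22 FPKM in WY-14643 and 4.21 ± 3.50 FPKM in vehicle (SD, n = 5 each; limma, adjusted p = 1 without pairs and 0.0381 with them, 0.0150 to 0.182 when a pair was left out). Cbr1 averaged 33.9 ± 19.1 FPKM in WY-14643 and 21.8 ± 13.1 FPKM in vehicle and did not pass in either fit. Of 20 genes of fatty aldehyde and sphingolipid breakdown 16 were tested, with a median of -0.01, and 0 passed in either fit. Lpcat3, a lysophospholipid acyltransferase, had the smallest p, at 58.1 ± 9.97 FPKM in WY-14643 and 42.1 ± 10.5 FPKM in vehicle, and Tmem86a, a lysoplasmalogenase, was at 26.0 ± 9.21 FPKM in WY-14643 and 32.2 ± 7.39 FPKM in vehicle (SD, n = 5 each). Of 17 listed genes of proline, lysine and choline breakdown 16 were in the table and 8 tested, with a median of 0.000145, and 0 passed in either fit. Prodh, the enzyme that feeds Aldh4a1, averaged 1.94 ± 0.754 FPKM in WY-14643 and 2.21 ± 0.837 FPKM in vehicle, and Gcdh 8.34 ± 1.082 FPKM in WY-14643 and 8.92 ± 1.86 FPKM in vehicle (SD, n = 5 each).

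Receptors and factors that are known to act on these genes were also measured, together with readouts of them. Of 13 such genes 10 were tested, with a median log2 fold change of 0.09. The tested readouts had log2 fold changes of 1.15 (Cpt1a), 0.90 (Cyp1b1), 0.85 (Nqo1), 0.53 (Hmox1) and 0.07 (Tiparp). Those of the tested receptors and factors were 0.06 (Ppard), -0.21 (Pparg), 0.03 (Rxra), -0.06 (Ahr) and 0.11 (Nfe2l2). Without pairs 0 of the 10 passed, where 0% of all genes did. With pairs 1 was called higher, against 0.287% of all genes. That gene was Cpt1a, a PPARα target, at 22.1 to 30.6 FPKM in WY-14643 and 8.68 to 15.1 FPKM in vehicle libraries (limma, adjusted p = 0.0917 without pairs and 0.01004 with them, 0.0150 to 0.0726 when a pair was left out). Ppara itself was below the filter, at 0.336 ± 0.177 FPKM in WY-14643 and 0.298 ± 0.174 FPKM in vehicle. Of the targets of the aryl hydrocarbon receptor, Cyp1b1 averaged 7.76 ± 6.42 FPKM in WY-14643 and 3.32 ± 2.20 FPKM in vehicle (higher in 5 of 5 pairs; limma, adjusted p = 1 without pairs and 0.0536 with them), Tiparp 15.0 ± 3.53 FPKM in WY-14643 and 14.7 ± 5.38 FPKM in vehicle, and Cyp1a1 was near 0 in both groups, at 0.0553 FPKM in WY-14643 and 0.0285 FPKM in vehicle. Of NRF2 targets, Nqo1 averaged 55.5 ± 24.0 FPKM in WY-14643 and 32.3 ± 16.2 FPKM in vehicle, and Hmox1 25.3 ± 4.16 FPKM in WY-14643 and 17.7 ± 5.19 FPKM in vehicle (SD, n = 5 each), neither of which passed in either fit.

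The genes most like the most abundant retinal and fatty aldehyde forms across the 10 libraries were found by Pearson's r of log2(FPKM + 1) over 10374 protein-coding genes, given as a description since libraries share treatment and pair. For Aldh1a1 they were Hsdl2 (r = 0.92), Ablim1 (r = 0.91) and Akr1b8 (r = 0.91). For Aldh3a2 they were Mmp28, Ech1 and Trak1 (r = 0.96 each). Hsdl2 averaged 17.5 ± 3.01 FPKM in WY-14643 and 9.28 ± 2.10 FPKM in vehicle, and Ech1, a peroxisomal and mitochondrial isomerase of fatty acid oxidation, 74.4 ± 17.7 FPKM in WY-14643 and 44.1 ± 13.0 FPKM in vehicle (SD, n = 5 each).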

How the data were processed

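The deposited values are FPKM from a single table with a column per library, made by the authors; the submitters' processing notes list build mm39 and the tools featureCounts 1.5.0-p3 and HISAT2 2.0.5. The sources used here do not give the annotation release, strand setting or treatment of multi-mapped reads. FPKM multiplied by gene length was a whole multiple of the smallest value of its library for 100% of values above 0 (tolerance 0.01), which gave the reads used for depth and for voom. Library totals were 15618244 to 29271304 reads.

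WY-14643 and vehicle were compared by limma 3.58.1 in R 4.3.3 on log2(FPKM + 1), with trend and robust priors and no covariate, over genes with a mean of at least 0.5 FPKM. The fit was also run on simulated counts with the same set spread for all genes. That run does not measure the power of the fit in these data. Single values were also compared by exact permutation of the 10 libraries. The members, lists and rule for named genes were chosen with earlier results of these data known. The rule took all members and other aldehyde dehydrogenases, up to 4 genes of each other list that had the smallest p, those that passed either fit, and the 3 protein-coding genes of mean at least 1 FPKM with the highest Pearson r to the most abundant retinal and fatty form. Rdh10, Stra6, Ppara, Tiparp and Cyp1a1 fall outside it and were chosen after their values were seen. Ppard, Pparg, Rxra, Ahr and Nfe2l2 also fall outside it, and with them all tested genes of the list of receptors and readouts are given.

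Labels share no replicate numbers between groups. Deviations from group means correlated at 0.423 to 0.782 between libraries matched in numerical order and at most 0.0602 between others, so a fit that blocks on these pairs is given beside the results; the pairing comes from the data, not from a label. The deviations of a group cancel out for each gene. High correlations between matched libraries therefore lower the others in part by arithmetic.

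Alternatives were other pseudocounts, filters, scaling, priors, voom, library weights, leaving out each library, and the pairs. The median-ratio scaling, counted among the 23, divided each of the 10 libraries by the same factor (1.009). It therefore could not test how results depend on the scaling between libraries. Python 3.11.15 with matplotlib 3.10.9 drew the plots.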

Additional observations from a re-analysis of the deposited data

Results flagged for a closer look

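In 40 groups of 5 libraries (members and other aldehyde dehydrogenases), 6 held a library far from the other 4; chance flags about 1 in 20 groups. Aldh1a3 stood far above the others in WY-14643 replicate 6 (127.1 FPKM, the others 0.870 to 19.4) and in vehicle replicate 1 (105.9 FPKM, the others 1.62 to 24.2). Aldh2 stood below the others in WY-14643 replicate 6 (48.3 FPKM, the others 81.2 to 93.8). Aldh1a1 was lowest in WY-14643 replicate 9 (33.7 FPKM, the others 46.6 to 50.2). In vehicle replicate 2 Aldh1a7 was high (5.80 FPKM, the others 1.92 to 2.34), as was Aldh3b2 (0.482 FPKM, the others 0.0888 to 0.199). The reasons were not tested.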

How the results depend on the processing

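The count of genes called was 0; it was 0 to 2 when a library was left out, 21 with library quality weights and 43 with the replicate block of pairs. With the block it was 33 without replicates 6 and 1, 3 without replicates 7 and 2, 2 without replicates 8 and 3, 13 without replicates 9 and 4, and 33 without replicates 10 and 5. Of the members 1 was called with library weights (Aldh3a1) and 0 in the other 22 alternatives. With the replicate block the adjusted p was 0.0830 for Aldh3a1, 0.0656 for Aldh3a2 and 0.113 for Aldh1a1 (limma), and it changed no member's call. The direction of Aldh1a1, Aldh3a1 and Aldh3a2 held in all 23 alternatives, with log2 fold changes of 0.86 to 1.39, 1.13 to 1.59 and 0.29 to 0.47. Among these the median-ratio scaling could hardly change a value, since its factor was the same in all libraries. Leaving out a library turned small differences round: ranges were -1.13 to 0.40 for Aldh1a3, -0.18 to 0.53 for Aldh3b1, -0.12 to 0.19 for Aldh1b1, -0.14 to 0.25 for Aldh2, -0.18 to 0.018 for Aldh4a1, -0.069 to 0.011 for Aldh7a1, -0.075 to 0.33 for Aldh5a1, -0.042 to 0.20 for Aldh6a1, -0.19 to 0.41 for Aldh18a1, -0.11 to 0.48 for Aldh1l2, -0.36 to 0.079 for Rdh10, -0.26 to 0.0037 for Prodh and -0.19 to 0.0011 for Gcdh. Library weights also turned Aldh1b1 (-0.11), Aldh4a1 (0.010) and Aldh7a1 (0.042), and leaving out a pair turned Aldh1b1 (-0.023, without replicates 6 and 1) and Aldh4a1 (0.00095, without replicates 9 and 4); the cause was not tested. The median of the 3 retinal forms ran from -0.43 (voom) to 0.40 and changed sign without WY-14643 replicate 10 (0.40) or vehicle replicate 1 (0.38); that of the fatty aldehyde forms ran from 0.29 to 0.53. Aldh1a2 had at most 13 reads in a library. With the replicate block the SE was 0.13 for Aldh1a3 and 0.069 for Aldh3b1, against 1.16 and 0.54 without it, and neither passed (limma, adjusted p = 0.493 and 0.436).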
